A study of Rattus norvegicus with 17 samples.

Results

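The genes described here encode apolipoproteins, the protein components of plasma lipoproteins, and the proteins that assemble or remodel these particles in the liver. The set holds 10 genes, Apoa1, Apoa2, Apoa4, Apoa5, Apob, Apoc3, Apoe, Apom, Mttp and Lipc. They were chosen by name and not by a cut on measured values, though with earlier results of these data known. A gene was taken as measured where the platform annotation gives its symbol to a probe, which was the case for 7 of the 10, each with 1 probe, out of 13278 gene symbols on the array. Apoa1, Apoa4 and Apoc3 were matched to no probe by symbol, gene identifier or transcript accession and were not analysed here. In the rat assembly GRCr8 these 3 genes neighbour Apoa5 in a cluster on chromosome 8, so Apoa5 stands alone for that cluster here.

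Lipoproteins carry triglyceride and cholesterol through the aqueous plasma. In hepatocytes the large protein Apob is lipidated as it enters the endoplasmic reticulum by the microsomal triglyceride transfer protein encoded by Mttp, and the particle is secreted as very low density lipoprotein. Exchangeable apolipoproteins such as Apoa2, Apoa5 and Apoe move between particles in plasma, and hepatic lipase, encoded by Lipc, hydrolyses the lipids of the circulating particles. Apoe is also made outside the liver, by macrophages and adipocytes among other cells, and Apom is made in liver and in the kidney tubule.

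Liver and adipose tissue RNA came from male Goto-Kakizaki (GK) rats, an inbred strain with spontaneous type 2 diabetes, and from male Brown Norway (BN) rats, a strain without diabetes, all of 7 months of age and fed standard chow without any treatment. The 17 arrays hold liver of 3 GK and 5 BN rats and adipose tissue of 4 GK and 5 BN rats, and 3 GK and 5 BN rats gave both tissues. The strains differ across the whole genome, so no single locus is compared. Each array was an Illumina RatRef-12 BeadChip of 22226 probes, on which 8004 to 9747 probes were above background in liver and 7315 to 8237 in adipose tissue.

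In each tissue 1 array stood apart by kidney tubule or hepatocyte markers, and the muscle markers on the adipose arrays are given below. The array labelled GK liver replicate 2 had all 10 measured kidney tubule markers above background, against 1 or 2 of 10 on the other 7 liver arrays, and Umod, the uromodulin of the loop of Henle, stood there at a normalized level of 14.60 against 3.09 to 5.09 on the others. Its 10 measured hepatocyte markers had a median level of 9.05, against 15.06 to 15.58 on the other liver arrays. The array labelled GK adipose tissue replicate 1 had 8 of 10 hepatocyte markers above background, with a median level of 8.0, against 1 to 4 of 10 and medians of 3.12 to 5.41 on the other 8 adipose arrays. Albumin was not among the measured markers. Every strain comparison of the members is given with and without the array concerned. Levels are log2 values after variance stabilization (vsn), which follow log2 intensity only for bright probes, and a probe was called above background where its detection score exceeded 0.99. In whole tissue, fewer cells of a type and less RNA per cell cannot be told apart.

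Promoter windows in RefSeq, from 250 bases before to 50 bases after a transcript start in build GRCr8, were at hand for 5 of the 10 genes (8 windows). Those of Apoa5, Lipc and Apom are shown, the genes among these 5 with any match of the letters below. On the array with kidney tubule markers Apoa5 and Lipc were at or near background. Apom stayed far above it there, as did Apoe, whose windows held no match and are not shown. Capitals mark matches, on either strand, of GTTAAT (the half-site of HNF1, a liver and kidney transcription factor), of AGGTCA (the half-site of nuclear receptors) and of TATAAA (the TATA box).
Apoa5, chr8:55457621-55457920, plus strand: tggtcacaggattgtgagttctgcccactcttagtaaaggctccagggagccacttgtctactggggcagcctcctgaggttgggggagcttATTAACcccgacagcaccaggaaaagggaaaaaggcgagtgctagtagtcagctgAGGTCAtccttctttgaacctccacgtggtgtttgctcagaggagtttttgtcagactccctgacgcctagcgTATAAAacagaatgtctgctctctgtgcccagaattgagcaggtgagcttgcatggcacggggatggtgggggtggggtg
Lipc, chr8:80516236-80516535, minus strand: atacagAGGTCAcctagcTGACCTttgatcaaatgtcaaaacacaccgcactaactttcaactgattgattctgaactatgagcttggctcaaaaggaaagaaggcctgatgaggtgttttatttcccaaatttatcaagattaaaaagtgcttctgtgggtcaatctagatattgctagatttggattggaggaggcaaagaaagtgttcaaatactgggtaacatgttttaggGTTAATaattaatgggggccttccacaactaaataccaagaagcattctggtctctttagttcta
Apom, chr20:3695368-3695667, plus strand: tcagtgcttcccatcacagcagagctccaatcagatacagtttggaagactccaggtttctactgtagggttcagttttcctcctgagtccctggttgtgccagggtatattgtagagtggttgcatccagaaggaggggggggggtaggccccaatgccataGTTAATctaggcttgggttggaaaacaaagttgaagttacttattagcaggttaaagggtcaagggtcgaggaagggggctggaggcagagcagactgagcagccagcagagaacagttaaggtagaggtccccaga
The HNF1 half-site was present once in each of these 3 windows, first base 158 bases before the start in Apoa5, 15 in Lipc and 87 in Apom, and 7.45% of all 33469 promoter windows hold it. AGGTCA was found once in Apoa5 and 2 times in Lipc, in opposite orientations, and 16.2% of all windows hold it. TATAAA was found in Apoa5 alone among the 3, 30 bases before the start, and 14.2% of all windows hold it. The single window of Apoa4 and the 3 windows of Apoe held none of these letters. A second Apoa5 window (chr8:55457775-55458074) overlapped the first and held TATAAA, 184 bases before its own start, but neither GTTAAT nor AGGTCA. These matches describe the letters of the windows and were not tested against any measurement.

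Among the structural and exchangeable apolipoproteins, Apob gave no usable signal. Its probe was below the detection threshold on all 17 arrays, with scores of at most 0.926, and its levels were 4.42, 3.42 and 4.83 in GK liver and 3.98, 4.06, 3.70, 3.11 and 4.59 in BN liver. The adipose levels were 3.76 to 4.36 in GK and 3.78 to 4.33 in BN rats. Liver and adipose tissue thus overlapped for the gene that encodes the main structural protein of liver-derived lipoproteins, and no statement about Apob RNA can be based on this probe.

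Apoa2, an apolipoprotein of high density lipoprotein, had levels of 15.04, 7.70 and 15.52 in GK liver, against 15.38, 15.34, 15.45, 15.36 and 15.49 in BN liver. GK liver replicate 2, at an intensity of 544 against 28414 and more on the other 7 liver arrays, was far below all of them, and GK replicates 1 and 3 lay on either side of the BN range. In adipose tissue the levels were 7.26, 3.40, 3.35 and 4.17 in GK rats, against 4.14, 4.11, 1.76, 3.01 and 1.35 in BN rats. Only GK adipose tissue replicate 1, the array with hepatocyte markers, was above background there, at an intensity of 259 (score 0.998). Since the BN readings were at background, its distance to the BN mean depended on the scaling, with 4.39 (log2) in the joint vsn model, 2.81 with vsn of adipose tissue alone and 0.35 with neqc.

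Apoa5, a regulator of triglyceride clearance made by hepatocytes, had levels of 13.63, 5.83 and 13.68 in GK liver, against 13.99, 14.11, 14.35, 13.85 and 14.28 in BN liver. All GK values were below all BN values, also without GK liver replicate 2. The adipose levels of 4.25, 2.24, 3.34 and 1.68 in GK and 1.71, 1.70, 1.36, 0.49 and 2.42 in BN rats were all not above background.

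Apoe, the ligand of the low density lipoprotein receptor on remnant particles, was above background on every array. Its levels were 15.16, 13.97 and 15.50 in GK liver, against 15.44, 15.45, 15.53, 15.46 and 15.65 in BN liver. In adipose tissue they were 11.22, 10.58, 10.96 and 11.15 in GK rats, against 12.50, 10.96, 11.24, 12.29 and 11.96 in BN rats. GK adipose values lay in the lower part of the BN range or below it, and of the BN values that of replicate 2 alone fell within the GK range. In liver, Apoe and Apoa2 were close to the top of the scale, since without GK liver replicate 2 the Apoe probe reached 85.9 to 99.0% and the Apoa2 probe 79.3 to 94.6% of the highest intensity on its array. Whether this narrowed the differences between arrays was not tested.

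Apom, an apolipoprotein of high density lipoprotein that carries sphingosine 1-phosphate, had levels of 12.60, 11.82 and 12.89 in GK liver, against 12.84, 12.81, 12.67, 12.84 and 12.68 in BN liver. GK liver replicate 2 was the lowest by level, yet its intensity of 7372 lay within the BN range of 7203 to 9396. In adipose tissue Apom was weak but above background on 8 of 9 arrays, with levels of 6.35, 6.57, 6.26 and 6.10 in GK rats and 6.09, 6.06, 6.27, 6.27 and 6.08 in BN rats, where BN replicate 2 missed the threshold (score 0.989). The strains overlapped in both tissues.

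Mttp, the lipid transfer protein that loads Apob, had levels of 12.07, 6.78 and 12.10 in GK liver, against 11.84, 12.04, 12.06, 11.53 and 12.21 in BN liver. Apart from GK liver replicate 2, the GK values lay inside the BN range. In adipose tissue Mttp was not above background on any array, with levels of 4.43 to 5.15 in GK and 4.34 to 4.73 in BN rats.

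Lipc, the hepatic lipase gene, had levels of 12.96, 4.99 and 12.89 in GK liver, against 12.38, 13.05, 13.25, 13.02 and 13.27 in BN liver. It was the one member besides Apob that was not above background on GK liver replicate 2 (score 0.987). In adipose tissue it was not above background on any array, at 2.92 to 4.73 in GK and 3.2 to 4.34 in BN rats. Each array read a member from 19 to 63 beads, with a standard error of the bead mean of 0.267 to 1.41% of the intensity, so for bright probes the spread between arrays was larger than the reading error.

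**Figure D1:**
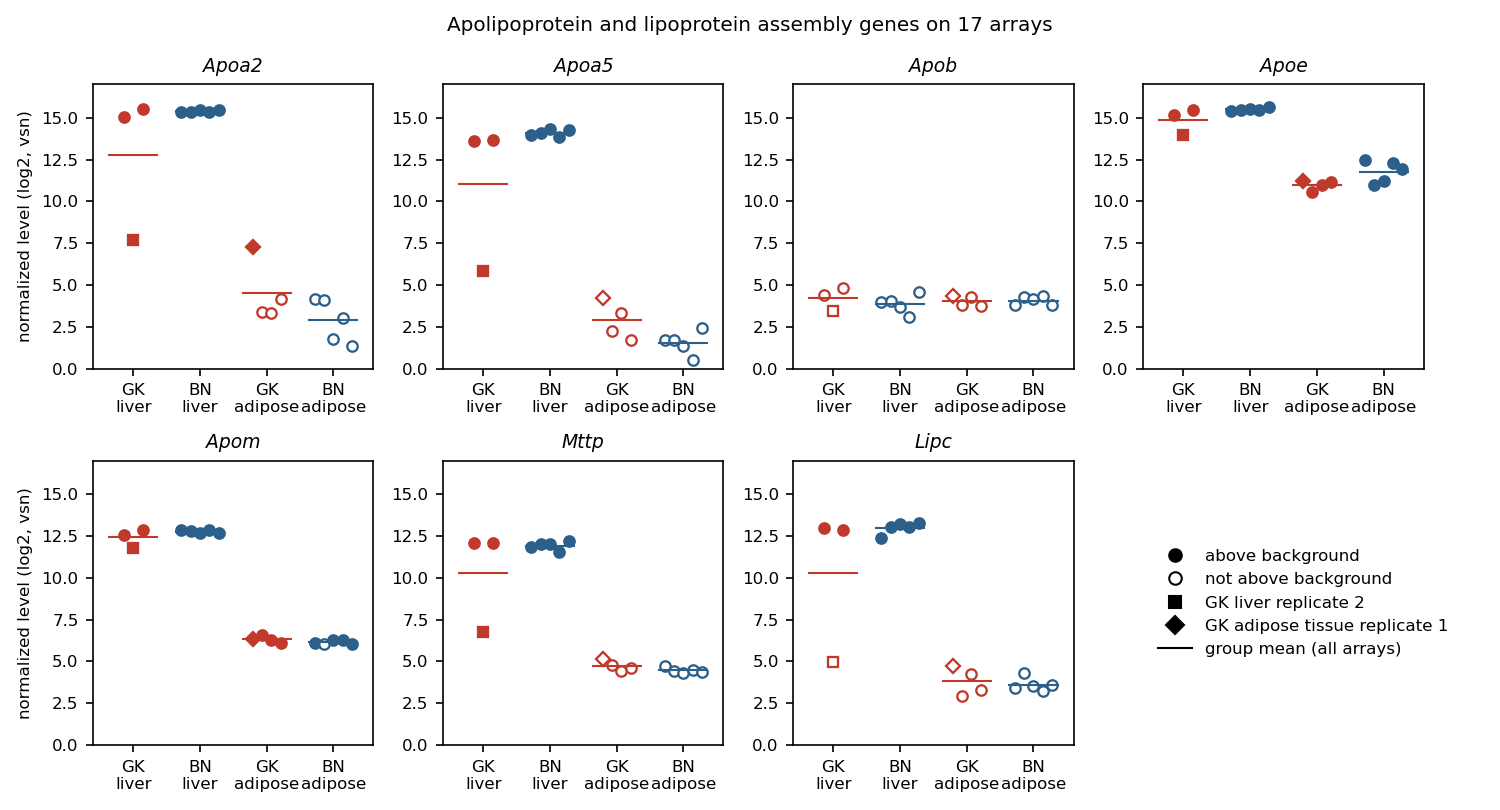
Normalized level (log2, vsn) of the 7 measured members on each of the 17 arrays, with GK left of BN in each tissue, filled symbols for arrays above background, and a line at the mean of all arrays of a group. The square, GK liver replicate 2, is far below the other liver arrays for Apoa2, Apoa5, Mttp and Lipc and nearer to them for Apoe (13.97) and Apom (11.82), and the diamond, GK adipose tissue replicate 1, is the one adipose array with Apoa2 above background (7.26).

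The first comparison asked whether the diabetic strain expressed these genes differently in liver. None of the 7 members passed the threshold of 0.05 on the adjusted p (limma, Benjamini-Hochberg over 22226 probes), in a comparison in which 0.679% of all probes did, and none had an unadjusted limma p under 0.05, against 12% of all probes. With all 3 GK arrays, 6 of the 7 log2 differences were below 0, with a median of -1.62 (all probes, -0.00), and they ranged down to -3.07 for Apoa5 (standard error 1.58, adjusted p = 0.47), -2.71 for Lipc, -2.65 for Apoa2 and -1.62 for Mttp. Apoa5 was the single member without overlap between the strains, as were 9.06% of all probes (exact permutation p = 0.0357, two-sided, the smallest that 3 against 5 rats allow).

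Without GK liver replicate 2 these differences shrank. None of the 7 members passed the threshold, against 1.21% of all probes, and the median was -0.07 (all probes, -0.04). Apoa5 was lowest, at -0.46 ± 0.24 (log2, SE, n = 2 and 5, 95% interval -1.01 to 0.09, limma adjusted p = 0.45), again without overlap, as were 17.2% of all probes, where the exact p cannot go below 0.0952. Its GK values of 13.63 and 13.68 were just under the lowest BN value of 13.85. The intervals of the differences for the other detected members were -0.65 to 0.41 for Apoa2, -0.69 to 0.33 for Apoe, -0.53 to 0.48 for Apom, -0.44 to 0.74 for Mttp and -0.75 to 0.62 for Lipc. Differences of up to about these bounds in either direction were therefore not resolved with 2 GK livers. GK liver replicate 1 also had slightly lower hepatocyte markers, with a median of 0.38 below the BN mean. On that array Apoa2 stood at -0.36, Apoa5 at -0.49 and Apoe at -0.35, while Apom stood at -0.17, Lipc at -0.03 and Mttp at 0.14. GK liver replicate 3 had its hepatocyte markers at a median of 0.03 and Apoa5 at -0.43. The part of the hepatocyte markers in these values was not tested.

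On GK liver replicate 2, a single array, the 6 members above background in BN liver split into 2 kinds. Set against the BN liver mean, Apoa5 stood at -8.29, Lipc at -8.00, Apoa2 at -7.70 and Mttp at -5.15 on the log2 scale, beside a median of -6.45 for the hepatocyte markers. Apoe stood at -1.53 and Apom at -0.95, beside a median of 7.74 for the kidney tubule markers, whose part in these values was not tested. Apob, at background on every array, stood at -0.46. These sizes depended on the scaling between arrays. Apom stood at -0.39 and Apoe at -0.60 after quantile normalization, and at -0.41 and -0.60 with neqc. Mttp stood at -5.47 after quantile normalization and at -3.83 with neqc, Lipc at -8.17 and -4.96, Apoa5 at -8.46 and -6.01, and Apoa2 at -7.70 and -7.02. Apoa2, Apoa5 and Mttp, although low, were still above background on this array. On slides that carried both strains, the pair with this array gave -7.64 for Apoa2 and -0.99 for Apom, and the pair of GK and BN replicate 3 gave 0.07 and 0.22.

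**Figure D2:**
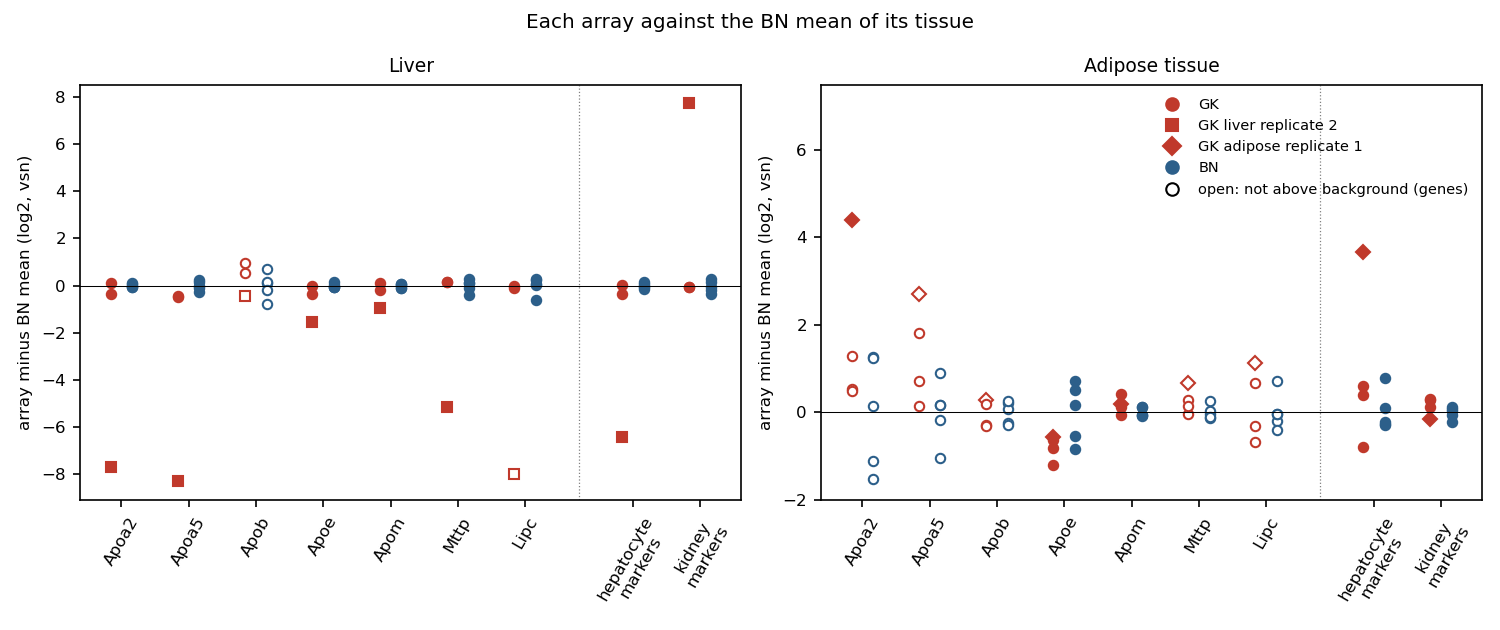
Each array's level minus the mean of the BN arrays of its tissue (log2, vsn) for the 7 members and, right of the dotted line, the median over the hepatocyte and the kidney tubule markers, with GK left of BN. GK liver replicate 2 (square) is at -8.29 to -5.15 for Apoa5, Lipc, Apoa2 and Mttp and at -0.95 for Apom, and GK adipose tissue replicate 1 (diamond) is highest for Apoa2 (4.39, against a BN mean of readings at background) and for the hepatocyte markers (3.66).

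The same question was put to adipose tissue, where again none of the 7 members passed the threshold, against 2.65% of all probes. Muscle markers varied widely between these arrays, with medians of 5.47 to 13.27 in GK and 5.24 to 10.12 in BN rats. The 13.27 was that of GK adipose tissue replicate 2, with all 7 measured muscle markers above background and Ckm at 13.69. That array had the lowest Apoe (10.58) and the highest Apom level (6.57) of the adipose arrays. It was kept in the adipose comparisons except where single arrays were left out. Among GK arrays, Apoe was 11.22 at the lowest muscle median (5.47, replicate 1). Among BN arrays the order was the other way, with Apoe at 12.29 for the highest muscle median (10.12, replicate 4) and 10.96 for the lowest (5.24, replicate 2). The part of the muscle markers in the values below was not tested. Apoe, which averaged 10.98 in GK and 11.79 in BN rats, differed by -0.81 ± 0.33 (log2, SE, n = 4 and 5, 95% interval -1.55 to -0.07), with an unadjusted p of 0.034 and an adjusted p of 0.29 (limma). Its strains overlapped, and the exact permutation p was 0.079. The Apoe difference was uneven over the slides that carried both strains, with -1.28, 0.00 and -0.10 on the 3 of them. Macrophage markers, from cells that also make Apoe, had medians of 8.72 to 9.02 in GK and 8.48 to 9.52 in BN adipose tissue, with 4 and 4 to 5 of 6 above background, and their part in the Apoe values was not tested.

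Apoa5 was the other member with an unadjusted p under 0.05 in adipose tissue (1.34 ± 0.54, limma adjusted p = 0.28, exact permutation p = 0.111). These are 2 of 7 members, and 14.7% of all probes had such a p. All 9 Apoa5 values were at background, so this difference is one between readings without signal. Apoa2 differed by 1.67 ± 0.90 (limma adjusted p = 0.44), with 1 of 4 GK and 0 of 5 BN arrays above background. Apom differed by 0.17 ± 0.15 and could vary by -0.17 to 0.51 within its 95% interval. Mttp, Lipc and Apob, at background on every adipose array, gave 0.27, 0.19 and -0.03.

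Without GK adipose tissue replicate 1, the array with hepatocyte markers, no member passed either (1.69% of all probes did). The Apoa2 difference was 0.77 ± 0.67 and that of Apoa5 0.88 ± 0.48, both with every remaining array not above background. The Apoe difference was -0.90 ± 0.37 (95% interval -1.74 to -0.05, limma adjusted p = 0.39), and -0.05 (adjusted p = 0.96) with the slide as a fixed block, against -0.46 (adjusted p = 0.64) with that block and all GK arrays. Apom was at 0.16 ± 0.18. The single Apoa2 value above background in adipose tissue was that of the array left out.

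**Figure D3:**
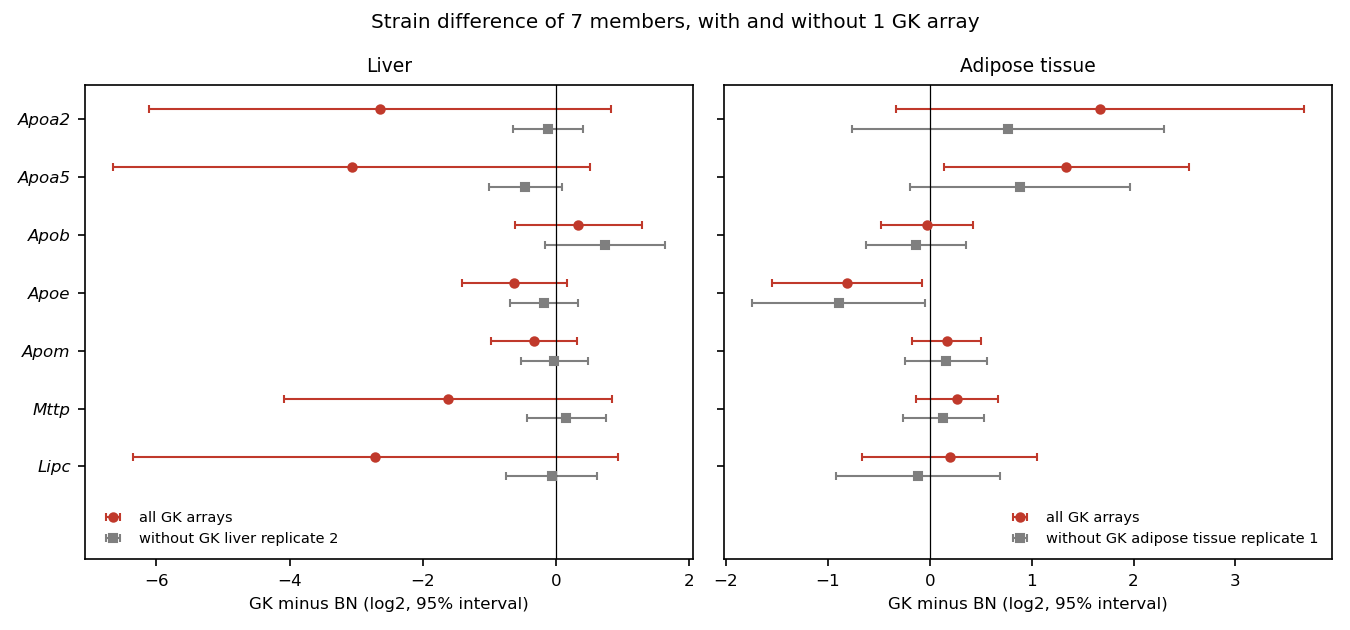
GK minus BN difference (log2, with its 95% interval from limma) of the 7 members in liver (left) and adipose tissue (right). Red circles show all GK arrays, and grey squares leave out GK liver replicate 2 in liver and GK adipose tissue replicate 1 in adipose tissue. In liver the point of Apoa5 moves to -0.46 and that of Lipc to -0.07 without GK liver replicate 2, and in adipose tissue Apoe is at -0.81 with all GK arrays and at -0.90 without GK adipose tissue replicate 1.

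Whether the strain difference itself differed between tissues was tested as an interaction over 15 arrays. GK liver replicate 2 and GK adipose tissue replicate 1 were left out, and the rat was a random block. None of the 7 members passed (1.5% of all probes did), with adjusted p-values of 0.37 for Apoa5 (-1.33 ± 0.58, limma), 0.43 for Apob and 0.57 to 0.99 for the other 5. The Apoa5 value again sets a liver signal against adipose readings at background.

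Liver and adipose tissue were compared within the 5 BN rats, whose tissues carry the same animal labels, with the rat as a block. Of the 7 members 6 were higher in liver, where 20.8% of all probes were, and none lower. For each of the 6 the tissues did not overlap, as for 34.4% of all probes. Adipose tissue was not above background for 4 of them, which gives lower bounds on the vsn scale, and liver was at least 1072-fold higher for Apoa2, at least 438-fold for Apoa5, at least 202-fold for Lipc and at least 96.8-fold for Mttp (limma adjusted p at most 2.4e-06). These bounds set the liver mean against the lowest level above background on each adipose array. With neqc, which adds an offset of 16 to all values, the fitted differences were smaller, at 7.34 (log2) for Apoa2, 6.11 for Apoa5, 4.99 for Lipc and 3.95 for Mttp. Apom averaged 12.77 ± 0.09 in BN liver and 6.15 ± 0.11 in BN adipose tissue (SD, n = 5 each), a difference of 6.62 ± 0.16 (log2, SE, limma adjusted p = 4.3e-07).

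Apoe, which was well above background in both tissues, differed by 3.72 ± 0.28 on the log2 scale, with 15.51 ± 0.09 in BN liver and 11.79 ± 0.67 in BN adipose tissue (SD, n = 5 each, limma adjusted p = 5.2e-05). Apob differed by -0.18 ± 0.30 (limma adjusted p = 0.67), both tissues being at background. Liver and adipose arrays shared none of the 12 slides, so slide and tissue cannot be told apart. The bright Cy3 hybridisation controls read 23312 to 51340 on liver arrays against 8178 to 18014 on adipose arrays.

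Around the members, 78 genes of the same biology were measured, in 6 lists of other apolipoproteins, triglyceride supply and particle assembly, lipases and particle remodelling, lipoprotein receptors and uptake, sterol transporters, and transcription factors of apolipoprotein genes. In liver with all arrays none of the 78 passed. Without GK liver replicate 2, 2 were higher and 1 was lower in GK, against 0.522% and 0.688% of all probes. In adipose tissue 2 were higher and 2 lower, against 1.03% and 1.62% of all probes. The medians of the 6 lists lay between -0.12 and 0.45 in liver without that array and between -0.20 and 0.19 in adipose tissue (all probes, -0.04 and 0.02).

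Apof, a plasma inhibitor of lipid transfer between lipoproteins, had levels of 13.02, 4.26 and 13.46 in GK liver, against 10.34, 10.26, 10.52, 10.31 and 10.23 in BN liver. GK replicates 1 and 3 were above every BN liver, while GK liver replicate 2 was not above background. Without that array Apof was 2.91 ± 0.23 higher in GK liver (log2, SE, 7.51-fold, limma adjusted p = 0.0016), and with it -0.09 (adjusted p = 0.99). No adipose array was above background for Apof. The interaction was 3.40 ± 0.57 (limma adjusted p = 0.0071), which for the adipose side rests on readings at background.

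Apol9a, an apolipoprotein L family member with close paralogs that 1 probe may not separate, was higher in GK adipose tissue, and in GK liver only when GK liver replicate 2 was left out. It had levels of 9.37, 5.69 and 9.78 in GK liver, against 7.21 to 7.89 in BN liver. The liver difference was 0.78 ± 0.82 (limma adjusted p = 0.71) with all GK arrays and 2.07 ± 0.26 (adjusted p = 0.012) without that replicate. In adipose tissue it had 8.43, 8.38, 8.19 and 8.43 in GK, against 7.45, 6.92, 7.41, 7.23 and 7.03 in BN rats, a difference of 1.15 ± 0.16 (limma adjusted p = 0.0048, and 1.13 with adjusted p = 0.023 without GK adipose tissue replicate 1). The groups did not overlap in adipose tissue, nor in liver once GK liver replicate 2 was left out.

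Among the receptors and transporters, Cd36, the scavenger receptor and fatty acid translocase, was lower in GK adipose tissue, and in GK liver only without GK liver replicate 2. In adipose tissue it had levels of 12.76, 12.37, 12.59 and 12.62 in GK, against 13.67, 13.55, 13.61, 14.00 and 14.21 in BN rats, a difference of -1.22 ± 0.19 (limma adjusted p = 0.0067, and -1.28 with adjusted p = 0.019 without GK adipose tissue replicate 1). In liver it had 8.70, 10.56 and 8.70 in GK, against 10.09 to 10.95 in BN rats. The difference was -1.30 ± 0.46 (limma adjusted p = 0.33) with all GK livers and -1.92 ± 0.29 (adjusted p = 0.025) without GK liver replicate 2. Abca1, which exports cholesterol to lipid-poor apolipoprotein, had 7.88, 8.22, 7.69 and 7.94 in GK adipose tissue, against 9.02, 9.05, 9.05, 8.68 and 8.79 in BN adipose tissue. Its difference of -0.98 ± 0.17 (limma adjusted p = 0.012) stood at -0.97 without GK adipose tissue replicate 1 (adjusted p = 0.048).

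Of the 16 measured genes of triglyceride supply and particle assembly, Apobec1, the deaminase that edits the Apob transcript, was the one that passed in adipose tissue. It had levels of 8.72, 9.0, 8.40 and 9.17 in GK, against 8.16, 7.69, 7.99, 7.43 and 7.75 in BN rats, with a difference of 1.02 ± 0.21 (limma adjusted p = 0.038, and 1.05 with adjusted p = 0.094 without GK adipose tissue replicate 1). Acat2, a cytosolic thiolase of acetyl-CoA whose symbol is also in use for a cholesterol-esterifying enzyme, passed in neither strain comparison. It passed in the interaction, at 2.34 ± 0.50 (limma adjusted p = 0.030), and in 11 of 22 alternatives (adjusted p up to 0.13). Among the 15 alternatives in liver without GK liver replicate 2, it passed in 5. Between the BN tissues Acat2 was lower in liver, past the threshold in 10 of 10 alternatives. None of the 9 lipase and remodelling genes, which include Lcat, Lpl and Pltp, and none of the 24 transcription factors, Hnf4a among them, passed in either strain comparison.

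**Figure D4:**
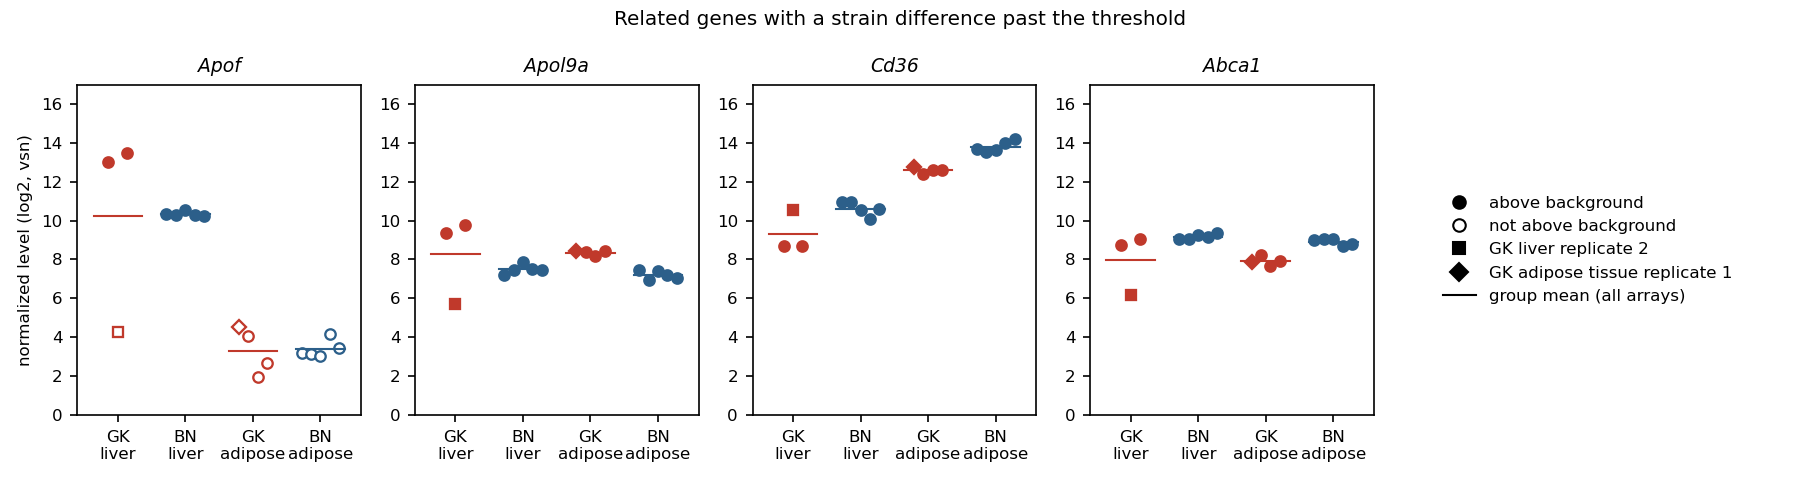
Normalized level (log2, vsn) of Apof, Apol9a, Cd36 and Abca1 on each array, with GK left of BN in each tissue, filled symbols for arrays above background and a line at the group mean. GK liver replicates 1 and 3 are above every BN liver for Apof (13.02 and 13.46) and Apol9a, and below every BN liver for Cd36, and GK liver replicate 2 (square) departs from them in all 3.

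Between BN liver and BN adipose tissue 38 of the 78 were higher and 23 lower in liver, against 20.8% and 18% of all probes. Of the 11 other apolipoproteins 9 were higher in liver and none lower, with a list median of 9.18 (all probes, 0.01), among them Apoc2, the cofactor of lipoprotein lipase, at least 891-fold, and Apon at least 222-fold. Lpl, lipoprotein lipase itself, was lower in liver, at a log2 difference of -6.22 ± 0.20, and Gpihbp1, which anchors it to the endothelium, was at least 93.6-fold lower. Lcat, which esterifies cholesterol in plasma lipoproteins, was higher in liver by 6.27 ± 0.18. Of the 24 transcription factors 12 were higher and 4 lower, and Creb3l3, a liver regulator of triglyceride metabolism, was at least 114-fold higher, while Hnf4a was at least 4.28-fold higher.

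The genes most like the members were sought among 13643 other probes with a symbol, by Pearson's r to the mean of the members' standardized levels. Over the 8 liver arrays the first 5 were Slc17a2, Cyp2b3, Sult1c3, Cyp2j3 and Ces1c, with r from 0.992 to 0.993, and these points all share GK liver replicate 2 as the one array far from the rest. Over the 9 adipose arrays they were Hsd3b1, Cyp2d2, Syt1, Ces1c and Zfp583, with r from 0.903 to 0.961, where most member values were at background and GK adipose tissue replicate 1 was highest. Both are descriptions of these arrays.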

How the data were processed

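RNA of liver and adipose tissue was hybridised to Illumina RatRef-12 arrays. The deposited intensity values are probe signals averaged over beads by the authors' scanner software, not normalized. Beside them stand the number of beads (another per-probe column), the intensity spread of the beads and a detection score per the file headers. The authors also deposited log2 values, made by vsn within each tissue, and these served as an alternative.

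After subtraction of each array's negative control mean, all 17 arrays entered 1 vsn model (least trimmed squares quantile 0.9, 7 iterations, 5 slices), written in Python 3.11.15 with numpy 2.4.6 and scipy 1.17.1 and tested on simulated data. Its fit per tissue and the authors' log2 values differed by medians of 0.0093 (liver) and 0.0111 (adipose tissue). Symbols came from the platform annotation (13650 probes with 1 symbol, 8576 with none). The strains were compared with limma 3.58.1 in R 4.3.3 (statmod 1.5.0 for random blocks), and p-values were adjusted by Benjamini-Hochberg over all 22226 probes, with a threshold of 0.05. Errors of differences are standard errors. Where a gene was not above background in a group, the fold is a lower bound. P-values of the strain comparisons rest on the spread between rats, and those between the BN tissues on the spread of the within-rat differences. In liver with all arrays the spread includes that of GK liver replicate 2, the array with kidney tubule markers.

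The members and the gene lists were chosen with earlier results of these data known. The text names the 10 members, per list up to 4 genes past the threshold, the most abundant markers, 12 further genes fixed by name, and 5 genes of like pattern per tissue. Tissues of a BN rat were paired through its animal label.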

Additional observations from a re-analysis of the deposited data

Results flagged for a closer look

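One BN liver array stood apart for Lipc. BN replicate 1 was at 12.38, below the other 4 BN livers at 13.02 to 13.27, by more than the gap allowed for 5 samples, and below GK replicates 1 and 3 (12.96 and 12.89). No other of the 21 member-by-group sets with 4 or 5 arrays had such a value, and chance gives about 1 in 20.

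For 2 genes of the related lists the strain difference in liver differed from that in adipose tissue by the interaction test. The value was 3.40 (log2) for Apof, whose adipose readings were at background. For Acat2 it was 2.34 (log2), past the threshold in 11 of 22 alternatives, with levels of 10.66 and 11.84 in GK liver replicates 1 and 3 against 8.71 to 10.26 in BN liver, and of 9.86 to 10.31 in GK adipose tissue against 10.13 to 10.78 in BN adipose tissue.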

How the results depend on the processing

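The number of members past the threshold did not change under any alternative that was run: 0 in each strain comparison and in the interaction, and 6 between BN liver and BN adipose tissue, from 0 to 0 and from 6 to 6 when single replicates were left out. The direction of a member's difference changed in 36 of 700 refits, all of differences not past the threshold. In liver without GK liver replicate 2, Apoa2 was 0.11 with neqc and 0.11 after quantile normalization, Apom 0.023 with vsn of liver alone, 0.17 with neqc, 0.16 after quantile normalization and 0.020 in the deposited values, and Lipc 0.11 with neqc and 0.11 after quantile normalization. Apob in adipose tissue was 0.050 with the slide as a fixed block. In the interaction, Apoa2 was 0.10 with neqc and 0.11 after quantile normalization, Apom 0.15 with neqc, and with all 17 arrays Mttp was -1.88 and Lipc -2.90. The cause was not tested, except that all 17 arrays include GK liver replicate 2.

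Leaving out 1 array at a time gave -2.51 to 0.15 for Mttp in liver, with 0.15 when GK liver replicate 2 was left out. In liver without that array it gave -0.36 to 0.12 for Apoa2, -0.17 to 0.12 for Apom and -0.22 to 0.0025 for Lipc. In adipose tissue it gave -0.13 to 0.065 for Apob and -0.11 to 0.49 for Lipc, and -0.50 to 0.18 for Lipc without GK adipose tissue replicate 1. Between BN tissues Apob ran from -0.43 to 0.079. In the interaction Mttp ran from -0.086 to 0.095 and Lipc from -0.23 to 0.43. The adipose difference of Apoe ran from -1.02 to -0.46 over its alternatives (adjusted p 0.099 to 0.64), and from -1.10 to -0.047 without GK adipose tissue replicate 1 (adjusted p 0.14 to 0.96), with -0.047 for the slide as a fixed block.

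GK and BN replicate numbers belong to different rats by the animal labels, so the numbers do not pair them. Same-numbered arrays correlated at -0.16 to 0.07 in their deviations from the group means. The liver and adipose arrays of a BN rat, which share an animal, correlated at -0.26 to 0.25, so this measure cannot tell pairs apart. With the number as a replicate block, 0 probes passed in liver (151 without the block, and 0 against 269 without GK liver replicate 2) and 184 in adipose tissue (588 without it, and 44 against 376 without GK adipose tissue replicate 1), no member among them, and Lipc in liver without GK liver replicate 2 was 0.11. Between the BN tissues, where animals pair the arrays, 6 members passed with no replicate block too. With the slide as a fixed block 17 probes passed in adipose tissue, and 0 without GK adipose tissue replicate 1. In liver with all arrays 0 probes passed with that block. The Apof difference in liver without GK liver replicate 2 passed in 14 of 15 alternatives, Apol9a in 13, and Cd36 in 8. In adipose tissue Apol9a, Cd36 and Abca1 each passed in 16 of 19, and Apobec1 in 9, while without GK adipose tissue replicate 1 Apol9a passed in 9 of 18, Cd36 in 11, Abca1 in 7 and Apobec1 in 5. The Acat2 interaction passed in 11 of 22. The slide as a block could not be fitted in liver without GK liver replicate 2, and no member had another probe to try. Limits of these data include the many adipose readings at background and the 2 GK livers that remain without GK liver replicate 2. In liver Apoa2 and Apoe were near the top of the scale, and the effect of that was not tested.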
